A study of Mus musculus with 2 samples.

Results

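The genes described here are marked low CpG genes, that is, protein-coding genes whose promoter holds few CpG dinucleotides and nevertheless lies at a region of histone H3 trimethylated at lysine 4 (H3K4me3) in mouse embryonic stem cells. A gene was low in CpG when none of its 500-bp windows, taken every 20 bp from 1300 bp upstream to 200 bp downstream of its transcription start site (TSS), had an observed-to-expected CpG ratio over 0.48. The TSS was the 5′-most start of a protein-coding transcript in GENCODE vM1, on the build NCBIM37 (mm9). Such a gene was counted as marked when a region of the authors' pooled mm9 list overlapped the 1 kb on either side of that TSS. Of 22358 protein-coding genes, 8628 were low in CpG, and 2223 of these were marked. The other 6405 low CpG genes had no region there and serve as the comparison. The 2223 genes carry 2219 distinct symbols and lie at 2183 distinct regions, so some neighbours share a region. The genes were chosen by the regions of the pooled list, so the presence of a region, its signal and its width are descriptions here and not findings.

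The data come from chromatin immunoprecipitation with an H3K4me3 antibody followed by sequencing (ChIP-seq) of E14TG2a.4 cells, per the labels a line from a male 129/Ola mouse embryo. The labels name no treatment or genotype beyond the line, and both samples come from 1 cell line. They form 1 group of 2 biological replicates, so no groups could be compared. The files are peak lists, the sequencing depth is unknown, and a promoter without a region is one where nothing passed the caller's threshold. A promoter was mostly shared when at least 50% of its 31-base words recur at another gene's promoter. This held for 12.6% of low CpG genes without a region and 3.73% of marked ones. Reads there may not be assignable to 1 copy, and the part of this in the missing regions was not tested. The pooled mm9 list held 64140 regions with a median width of 1600 bp, and the lists of replicates 1 and 2 held 58875 and 52424. Of 8 embryonic stem cell markers, 6 had a region at the TSS, and of 8 fibroblast markers 4 had one, against 67.9% of all protein-coding genes. No RNA was measured in these samples, so a region here says nothing of how much a gene is transcribed.

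H3K4me3 is placed on nucleosomes next to gene starts by the Set1 and MLL enzyme complexes. Part of this recruitment runs through proteins with CXXC domains, such as Cfp1, which bind unmethylated CpG, and part through transcription itself. Most vertebrate promoters lie in CpG islands, stretches that kept their CpGs because they stay unmethylated in the germline. Promoters without an island are often methylated and are typical of genes used in 1 or a few tissues. H3K4me3 at a promoter of this kind is therefore usually read together with the cell type in which it was measured.

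The sequences below show what low in CpG means at single promoters. Each is the stretch of 200 bp just upstream of the TSS, read 5′ to 3′ along the gene from NCBIM37 (mm9), with every CpG in capitals. Pou5f1, Dppa2, Eras, Lefty1 and Zscan10 are marked stem cell genes, Gm14391 and 2210418O10Rik are marked genes with few CpGs and a high signal, Nanog is a low CpG stem cell gene without a region at this TSS, and Sox2 is a high CpG gene for contrast.
Pou5f1, chr17:35642782-35642981, + strand: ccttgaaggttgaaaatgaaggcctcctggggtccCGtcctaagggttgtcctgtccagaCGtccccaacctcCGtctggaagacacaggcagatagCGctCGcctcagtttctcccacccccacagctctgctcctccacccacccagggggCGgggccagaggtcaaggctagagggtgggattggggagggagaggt
Dppa2, chr16:48310390-48310589, + strand: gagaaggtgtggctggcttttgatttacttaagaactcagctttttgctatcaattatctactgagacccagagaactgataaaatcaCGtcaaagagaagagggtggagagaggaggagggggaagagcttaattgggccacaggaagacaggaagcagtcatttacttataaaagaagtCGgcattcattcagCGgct
Eras, chrX:7505734-7505933, - strand: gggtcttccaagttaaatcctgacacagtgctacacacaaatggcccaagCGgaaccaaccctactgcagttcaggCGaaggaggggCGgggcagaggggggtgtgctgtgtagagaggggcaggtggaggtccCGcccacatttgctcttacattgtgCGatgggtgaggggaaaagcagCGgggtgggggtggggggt
Lefty1, chr1:182864953-182865152, + strand: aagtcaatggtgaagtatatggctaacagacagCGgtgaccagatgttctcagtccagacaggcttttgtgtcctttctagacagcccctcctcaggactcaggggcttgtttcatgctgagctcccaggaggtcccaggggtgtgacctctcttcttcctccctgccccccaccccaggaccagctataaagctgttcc
Zscan10, chr17:23737623-23737822, + strand: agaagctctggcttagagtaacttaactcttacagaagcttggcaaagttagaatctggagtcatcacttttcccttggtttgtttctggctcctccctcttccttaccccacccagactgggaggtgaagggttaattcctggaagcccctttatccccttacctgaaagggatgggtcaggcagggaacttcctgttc
Gm14391, chr2:175032419-175032618, - strand: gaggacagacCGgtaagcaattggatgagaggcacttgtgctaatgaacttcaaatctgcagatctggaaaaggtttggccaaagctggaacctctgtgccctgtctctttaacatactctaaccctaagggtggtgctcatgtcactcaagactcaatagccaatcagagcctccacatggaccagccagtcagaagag
2210418O10Rik, chr2:175468171-175468370, - strand: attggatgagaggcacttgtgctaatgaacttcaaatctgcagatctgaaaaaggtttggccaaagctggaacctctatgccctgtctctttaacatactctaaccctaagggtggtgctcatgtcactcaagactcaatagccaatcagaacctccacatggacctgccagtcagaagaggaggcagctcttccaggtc
Nanog, chr6:122657307-122657506, + strand: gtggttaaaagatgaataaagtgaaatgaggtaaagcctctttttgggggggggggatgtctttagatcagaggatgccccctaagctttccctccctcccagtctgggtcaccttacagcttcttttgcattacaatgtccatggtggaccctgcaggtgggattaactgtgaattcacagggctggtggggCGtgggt
Sox2, chr3:34548727-34548926, + strand: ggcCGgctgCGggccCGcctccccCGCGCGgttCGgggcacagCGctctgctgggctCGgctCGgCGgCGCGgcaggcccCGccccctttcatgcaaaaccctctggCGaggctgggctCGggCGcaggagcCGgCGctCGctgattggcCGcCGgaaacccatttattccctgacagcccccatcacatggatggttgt

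Pou5f1 and Eras had 6 CpGs each in these 200 bp, Dppa2 had 3, Lefty1 and Gm14391 had 1, and Zscan10 and 2210418O10Rik had 0. Unmarked Nanog had 1, while Sox2 had 22. The printed stretch thus held no more CpGs at some marked genes than at Nanog. Of these, Gm14391 and 2210418O10Rik have promoter sequence that recurs at other genes, so their regions are uncertain. Nanog is unmarked by the mm9 lists only, since a list on the build mm10 had a peak near its start. Esrrb and Pecam1, unmarked stem cell genes not printed here, had 6 and 3 CpGs. Over all genes the median was 3 CpGs at marked low CpG genes (quartiles 2 and 5), 1 at unmarked ones (0 and 2), 9 at marked intermediate genes and 18 at marked high CpG genes. Intermediate here means a window over 0.48 but none that was both over 0.75 and over 55% in GC, which defines high CpG.

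A region within 1 kb of the TSS was found at 67.9% of all genes. At low CpG genes the share was 25.8% (Wilson 95% interval 24.9 to 26.7%), against 87.5% of 5904 intermediate genes and 99.5% of 7826 high CpG genes. In the replicates' own lists the low CpG share was 23.9% and 23.0%, a mean of 23.5% ± 0.623 (SD, n = 2). Genes are not replicates of a condition, so shares of genes carry Wilson 95% intervals, which cover counting error only, and no test over genes was made.

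The low CpG genes were not uniform in this respect. Among genes whose richest window had a CpG ratio of at most 0.1, 9 of 251 were marked (3.59%). The share was 14.6% between 0.2 and 0.25, 29.0% between 0.3 and 0.35, 46.7% between 0.4 and 0.44, and 55.4% between 0.44 and 0.48. It was 68.2% in the next bin above the limit, from 0.48 to 0.52, 72.5% from 0.52 to 0.56 and 82.3% from 0.56 to 0.60. The share rose from each of these bins to the next, on both sides of the limit. The marked genes had a median highest ratio of 0.36 (quartiles 0.29 and 0.43), and the unmarked ones 0.26 (0.19 and 0.34).

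**Figure D1:**
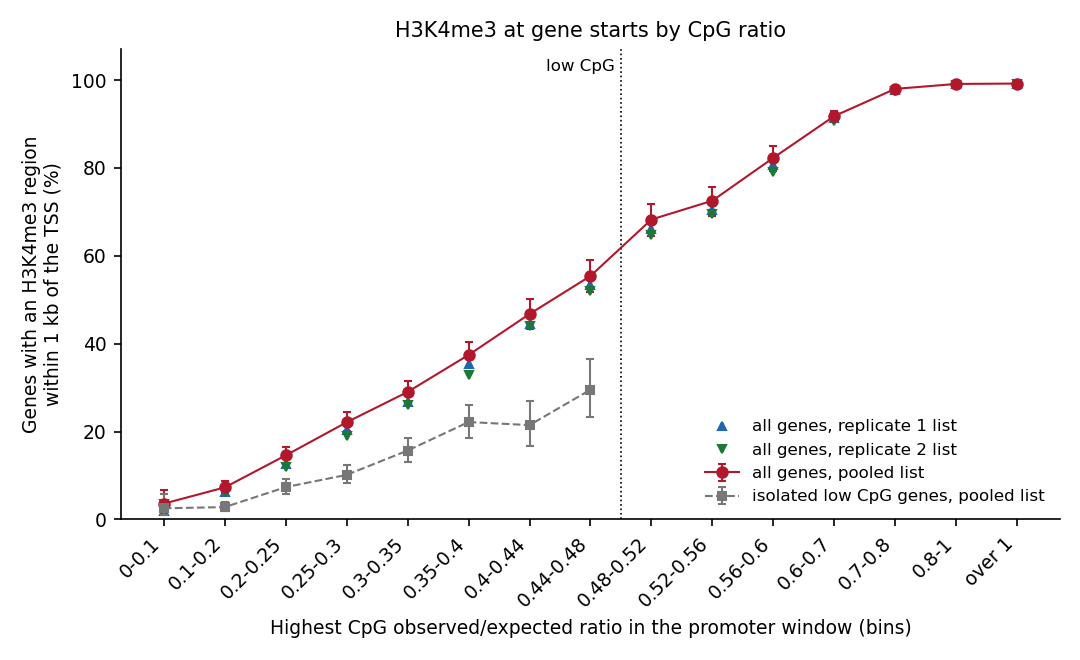
Percent of genes with an H3K4me3 region within 1 kb of the TSS (y axis) by the highest CpG observed/expected ratio of the promoter windows (x axis, bins); bars are Wilson 95% intervals, triangles the replicates' own lists, and grey squares low CpG genes with no other gene start within 5 kb and no window over 0.48 within 3 kb. The share climbs from 3.59% to 55.4% across the low CpG bins. The isolated genes go from 2.53% to 29.5%, with 22.2% between 0.35 and 0.4 and 21.5% between 0.4 and 0.44.

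GC content moved with marking inside each range of the CpG ratio. For a ratio up to 0.2, 9 of 813 genes were marked where GC content was under 40% (1.11%, interval 0.583 to 2.09%), and 42 of 151 where it was at least 50% (27.8%, interval 21.3 to 35.4%). For a ratio between 0.4 and 0.48 the corresponding shares were 15.1% and 79.8%. The median GC content was 48.3% at marked and 41.9% at unmarked low CpG genes, against 47.8% at marked intermediate genes. The marked low CpG genes thus had a GC content close to that of the marked intermediate ones. GC content can also alter how well a fragment is amplified and mapped, and its part in the marking was not tested.

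Regions at the marked low CpG genes were weaker and narrower than those at CpG-rich genes. The authors' signal value, a ratio per region over an unstated denominator, had a median of 7.82 (quartiles 4.64 and 13.2). It was 14.0 at marked intermediate and 18.1 at marked high CpG genes. The medians in the replicates were 9.41 and 9.15 for the low, 17.0 and 16.2 for the intermediate, and 23.0 and 21.7 for the high CpG genes, in the same order in both. The median width was 2000 bp for the low, 2400 bp for the intermediate and 3400 bp for the high CpG genes. The distributions overlapped widely, since the upper 5% of low CpG genes had a signal above 23.8 and a width above 7980 bp.

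**Figure D2:**
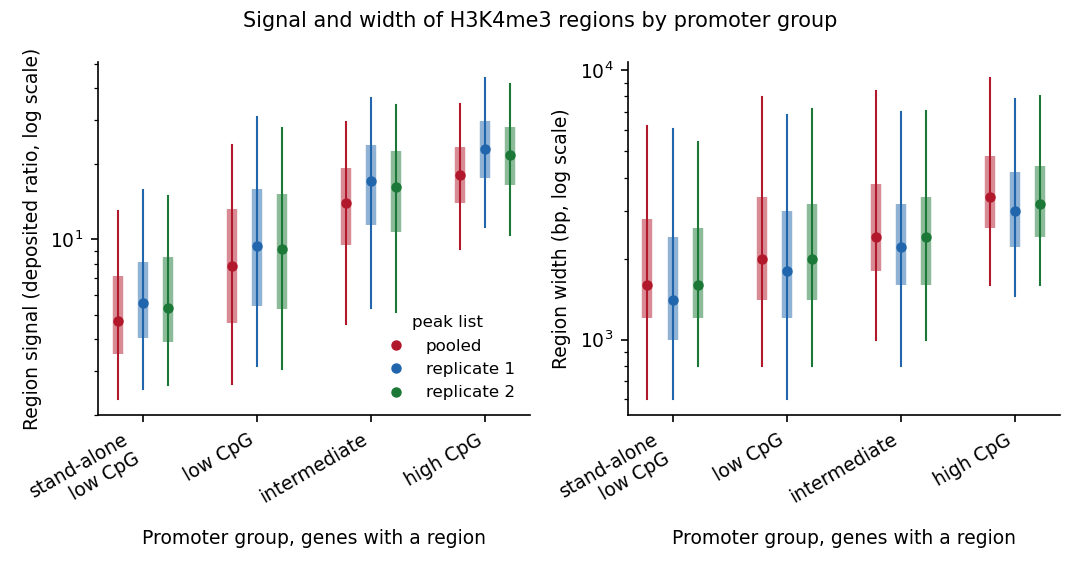
Signal (left, deposited ratio, log axis) and width (right, bp, log axis) of the region at marked genes by promoter group in the pooled list and each replicate's list; dots are medians, thick bars the middle 50% and thin lines the 5th to 95th percentile. Medians climb from stand-alone low CpG genes (4.72 and 1600 bp in the pooled list) to high CpG genes (18.1 and 3400 bp).

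Both replicates' own lists had a region within 1 kb at 1884 of the 2223 genes (84.8%), against 97.2% of marked intermediate and 99.9% of marked high CpG genes. Replicate 1 alone had one at 155 genes, replicate 2 alone at 83, and neither at 101. The last group is called through the pooled list only. The median signal was 8.73 at genes called in both, with a width of 2200 bp at the median. For those called in neither the values were 3.44 and 1200 bp. In the other direction, 46 low CpG genes had a region in a replicate's list and none in the pooled list. Acta1, which encodes skeletal muscle actin, is such a gene, with a signal of 8.86 in replicate 1.

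The rule admits only regions within 1 kb of the TSS, so their place near it is set by the rule. Within that limit a region covered the TSS at 1812 genes (81.5%, interval 79.8 to 83.1%). At the others the region of highest signal lay wholly downstream of the TSS at 312 and wholly upstream at 99. At marked intermediate and high CpG genes the TSS was covered in 96.5% and 99.6%. The midpoint of the region was downstream at 79.8% of the low CpG genes, with a median of 444.5 bp into the gene, against 343 bp and 295.5 bp in the other classes. The median region had 41.0% of its length in introns of the gene, 18.6% in exons and 28.0% outside the gene. A region that lies beside the TSS can belong to another start, and nearly 1 in 5 of these calls is of that kind.

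Many of the marked genes had CpG-rich DNA just outside the window that classed them. A 500-bp window over 0.48 was present within 3 kb of the TSS at 1582 of them (71.2%, interval 69.2 to 73.0%) and at 1588 unmarked genes (24.8%, interval 23.8 to 25.9%). When the classing window was extended to 1300 bp downstream, 15.5% of the low CpG genes were marked, and 39.6% of those marked had such a window. Between 200 and 1300 bp downstream the shares were 43.2% and 6.62%. This stretch was not used to class the genes. For windows centred 550 bp downstream, 27.7% of marked and 2.08% of unmarked genes were over 0.48, while 1950 bp upstream the shares were 3.92% and 1.45%. At 1950 bp downstream, the same distance on the other side, they were 8.73% and 1.55%. Windows that fall within the classing window are under 0.48 by the rule, so the upstream side could show nothing nearer than about 1 kb. The region itself held a window over 0.48 at 62.2% of the marked genes and a high CpG window at 25.7%.

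**Figure D3:**
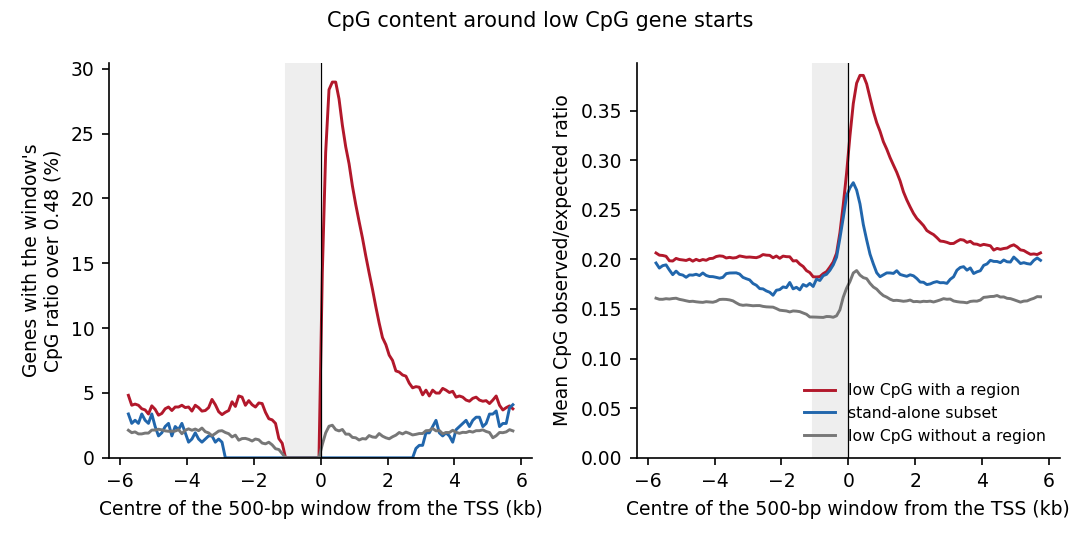
Percent of genes with a 500-bp window over a CpG ratio of 0.48 (left) and mean ratio (right) by the distance of the window's centre from the TSS (x axis, kb, negative upstream) for marked, stand-alone marked and unmarked low CpG genes; windows centred in the grey band set the class. The red curve stands at 27.7% at 550 bp downstream against 2.08% for unmarked genes, and the stand-alone genes are 0 within 2.5 kb by their definition.

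Each low CpG gene was then placed in 1 class, taken in the fixed order given here and not by distance. A neighbouring gene start was counted whether or not its DNA was rich in CpG. Another annotated gene, of any type, started within 1 kb at 207 marked genes (9.31%) and 269 unmarked ones (4.20%). Of the remainder, 385 marked genes (17.3%) had a second coding start of their own within 3 kb whose windows exceeded 0.48, against 61 unmarked genes (0.952%). A further 46.3% had a window over 0.48 within 3 kb and no such start, against 1455 unmarked genes (22.7%). None of these applied to 601 marked genes (27.0%) and to 4620 unmarked genes (72.1%). Read the other way, 86.3% of low CpG genes with a richer start of their own were marked (interval 82.8 to 89.2%), and 11.5% of those with none of the 3 features (interval 10.7 to 12.4%).

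The signal was ordered in the same way. Its median was 13.2 at genes with a richer start of their own, 9.92 with a neighbouring gene start, 8.21 with a rich window alone and 4.70 with none. Tmem9b, a transmembrane protein gene, belongs to the first kind, with a signal of 39.4 and values of 38.4 and 46.2 in replicates 1 and 2. Slc35f4, of a nucleotide-sugar transporter family, also belongs there with 43.6, and 47.7 and 34.2 in the replicates. Rps2, a protein of the small ribosomal subunit, stood at 22.9, and its region also covers the start of Rnf151, 59 bp upstream on the annotation. All 3 genes have a window with a ratio of at least 0.87 inside their region.

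Divergent neighbours were few. A coding or noncoding start pointing away within 1 kb upstream was found at 57 marked low CpG genes (2.56%) and 88 unmarked ones (1.37%), against 9.66% of marked intermediate and 24.9% of marked high CpG genes. Fewer marked than unmarked low CpG genes were made of a single exon (7.60% and 28.5%), and fewer had the start codon at the first annotated base (7.24% and 28.7%), a sign that the 5′ untranslated part of the transcript is missing from the annotation. More than 1 coding start was annotated at 54.6% of marked and 27.9% of unmarked genes. Another coding start of the same gene had a region within 1 kb, often the same one, at 49.6% and 5.07%. The part that such incomplete gene models have in the marked share was not tested. The unmarked set held 1058 olfactory and 314 vomeronasal receptor genes, and the marked set 16 and 2. These families were not separated in the shares of this paragraph or in the other comparisons of marked with unmarked low CpG genes.

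A set of 415 marked genes stood alone. Their region covered the TSS, no other gene of any type started within 5 kb, and no window from 3 kb upstream to 3 kb downstream exceeded 0.48. Their median signal was 4.72 (quartiles 3.51 and 7.13) and their median width 1600 bp. Both replicates called 325 of them (78.3%), and neither called 23. Their median GC content was 49.2%, against 41.1% at the 4152 unmarked low CpG genes that were isolated in the same way. Among all isolated low CpG genes, a region within 1 kb, not only over the TSS, was counted by CpG ratio. This share went from 2.79% between 0.1 and 0.2 to 29.5% between 0.44 and 0.48. The rise was not unbroken, with 22.2% between 0.35 and 0.4 and 21.5% between 0.4 and 0.44. Of the 415, 47.7% had another coding start of their own with a region, and 12.5% had one of a higher CpG class farther off.

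Pou5f1, which encodes Oct4, a factor that holds stem cells undifferentiated, was among the stand-alone genes with the highest signal. Its region at chr17:35639401-35650000 (mm9) was 10600 bp wide and had a signal of 20.9, with 26.9 and 27.0 in the replicates. The highest ratio within 3 kb of its TSS was 0.44. The promoter printed above holds 1 GC box, the run ggggCGgggc near its 3′ end. Agmat, which encodes agmatinase of polyamine synthesis, had a region of 1000 bp with a signal of 17.8 and of 19.2 and 17.0 in the replicates. Tsks, a testis kinase substrate gene, had 21.4 in a region of 400 bp that neither replicate's list contains. 1700001L19Rik had 18.4, and 32.5 and 18.3 in the replicates. A530054K11Rik had 15.8, and 19.4 and 16.1 in the replicates.

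Of the 10 stand-alone genes of highest signal, 5 lie on chromosome 2 and share promoter sequence. Gm14391 had 28.1, 2210418O10Rik had 24.1, Gm14296 had 23.4, Gm6710 had 20.8 and Gm14418 had 15.9, each with higher values in both replicates. The highest promoter ratio was between 0.19 and 0.23 in all 5. The 200 bp upstream of 2210418O10Rik and Gm14296 were identical over 200 of 200 bases. Between 73.0% and 100% of the 31-base words of the 5 promoters recur at another gene's promoter, so reads could not be assigned to 1 copy with certainty. Values for these genes are uncertain.

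The widest stand-alone region lay at Tet1, an enzyme that oxidises methylcytosine and is abundant in these cells. It spanned 31000 bp, with 25200 and 32000 bp in the replicates, and had a signal of 11.2, 13.6 and 12.3 in the pooled list and replicates 1 and 2. A window of ratio 0.88 lies inside that region but more than 3 kb from the TSS used. Slc7a7, an amino acid transporter, followed with 14000 bp, Tnip1, an inhibitor of NF-kB signalling, with 13800 bp, 2410137M14Rik with 12000 bp and Ebi3, a cytokine subunit, with 10800 bp. Slc7a7, Tnip1 and Ebi3 also had windows over 0.48 inside the region, of ratios up to 0.66, 1.02 and 1.06, beyond 3 kb. Igfals and Ifitm5 had regions of 10200 and 10000 bp, and Gm13051 and Gm13154 of 10400 and 9800 bp. Wide regions can therefore reach CpG-rich DNA that the 3-kb rule does not see.

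Short promoter motifs were searched as exact letters between 250 bp upstream and 50 bp downstream of the TSS on both strands. The GC box GGGCGG, a site of Sp1 and related factors, which itself contains a CpG, was present at 27.3% of marked low CpG genes (interval 25.5 to 29.2%) and 5.34% of unmarked ones (4.82 to 5.92%). It was present at 31.6% of the stand-alone genes, at 4.34% of the isolated unmarked genes and at 44.0% of all promoters of this length. Within GC contents of at least 50% the shares were 35.6% and 13.8%, and within 40 to 45% they were 16.9% and 4.71%. Of 949 low CpG genes with a GC box 64.0% were marked, against 21.0% of the 7679 without one.

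Other motifs were rarer or more even. The Klf-type site GGGTGTGG was present at 5.26% of marked, 3.73% of unmarked and 3.63% of all promoters. The Ets-type site CCGGAAGT, with a CpG of its own, was present at 1.35%, 0.390% and 4.83%. The CCAAT box was found at 36.2%, 39.3% and 37.9%, and the octamer ATGCAAAT, the site of Oct factors, at 1.30%, 2.53% and 1.72%. The TATA box TATAAA, counted only from 40 to 20 bp upstream on the gene's strand, was present at 2.43% of marked and 4.95% of unmarked low CpG genes and at 2.26% of all. The Stat-type site TTCCNGGAA was present at 1.26%, 1.23% and 1.16%. The Esrrb site TCAAGGTCA, found at 17 marked genes, stood at 0.765%, 0.406% and 0.344%. The E-box CACGTG was found at 5.76% and 3.22%, against 7.78% of all promoters. The CRE TGACGTCA was present at 0.810% of marked, 0.749% of unmarked and 2.35% of all promoters. For AAGATGGCG of YY1 the shares were 0.225%, 0.172% and 1.83%, and for ACTACAATT of Zfp143 0.315%, 0.219% and 0.483%. TGCGCATGC of Nrf1 stood at 0.450%, 0.0937% and 1.91%, and TTTCCCGC of E2F at 0.585%, 0.125% and 1.37%. These Nrf1 and E2F sites were found at only 10 and 13 marked genes, and at 6 and 8 unmarked ones. Motifs were counted separately, and their matches could overlap. GC content differs between the sets, and apart from the GC box its part in these shares was not tested.

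The share of low CpG genes that were marked ranged widely over chromosomes. It was 39.5% on chromosome 15 (103 of 261, interval 33.7 to 45.5%) and 35.5% on chromosome 11. It was 17.7% on chromosome 14, 17.8% on chromosome 13 and 18.2% on the X (82 of 450, interval 14.9 to 22.1%). The X is present in 1 copy in this male line. The part of copy number or of gene content in these shares was not tested.

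Among the lists with at least 10 low CpG genes, the stem cell list had the largest marked share. Of 45 such genes found, 21 were low in CpG, and 17 of these were marked (81.0%, interval 60.0 to 92.3%), against 25.8% of all low CpG genes. Replicate 1 called 16 and replicate 2 called 17. All 24 stem cell genes with CpG-richer promoters were marked, where 87.5% of all intermediate and 99.5% of all high CpG genes were. The region covered the TSS at 16 of the 17, and their median width was 6600 bp, against 2000 bp over all marked low CpG genes. Rich DNA or another gene start was nearby at 15 of the 17, and 2, Pou5f1 and Dppa2, stood alone. Over all marked low CpG genes, 27.0% had neither nearby, and 415 of 2223 stood alone. These lists were drawn up with earlier results of these data known, and the shares are descriptions.

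Lin28a, which blocks let-7 microRNA maturation, had the highest signal of the 17, 23.8, with 29.3 and 26.1 in replicates 1 and 2. Its window ratio reached 0.41, and another annotated gene, Gm13061, starts 694 bp downstream. Lefty1 and Lefty2, secreted Nodal inhibitors that lie side by side on chromosome 1, had 17.8 and 12.2. Nodal itself, the ligand, had 13.0 over 13000 bp, with 20.8 over 7000 bp and 14.5 over 12400 bp in replicates 1 and 2. The promoter stretch of Lefty1 printed above contains 1 CpG, and a window of ratio 0.74 lies within 3 kb.

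Eras, an X-linked Ras gene of stem cells, had 15.3, with 17.2 and 24.9 in the replicates. Gdf3, a TGF-beta family ligand, had 15.3, with 17.7 and 18.9. The neighbours Dppa4 and Dppa2, SAP-domain proteins of pluripotent cells, had 15.1 and 10.4. Their replicate values were 16.8 and 16.1 for Dppa4, and 11.0 and 10.8 for Dppa2. Dppa2 was a stand-alone gene, with a ratio of at most 0.48 within 3 kb. Zscan10, a zinc finger factor, had 14.9 over 9800 bp, a width also found in both replicates, although the 200 bp upstream hold 0 CpGs.

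Tdh, threonine dehydrogenase, on which the metabolism of mouse stem cells depends, had a region of 20200 bp with a signal of 11.4. The width at Tdh was 15000 and 18600 bp in replicates 1 and 2. Fbxo15, an F-box gene long used as a reporter of the stem cell state, had 9.31 over 10800 bp. Its width was 9400 and 22200 bp in the replicates. Dppa5a had 6.87 over 17200 bp, with widths of 7000 and 17200 bp in replicates 1 and 2. Spp1, osteopontin, had 6.50 over 4800 bp, with 4000 and 5000 bp in the replicates. Nr5a2, an orphan nuclear receptor, had 6.26 in the pooled list and 6.47 in replicate 2, and no region in replicate 1. Its region lay 604 bp from the TSS. Dppa3 had 5.93 and Dnmt3l, the cofactor of the de novo DNA methyltransferases, 5.75. Aire is another gene that starts within 1 kb of Dnmt3l.

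**Figure D4:**
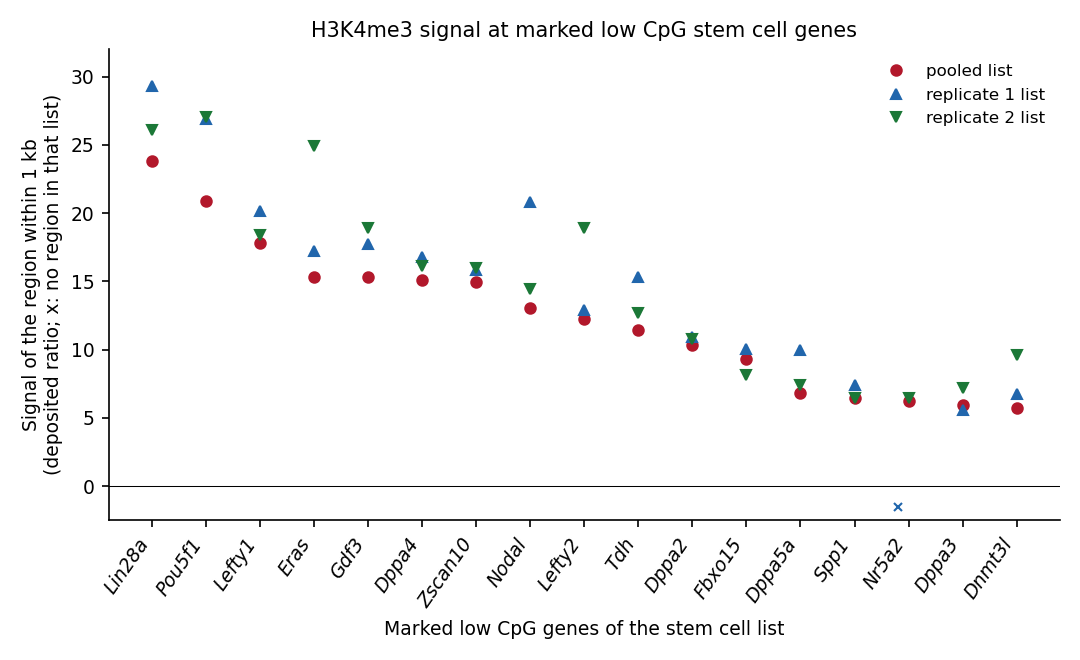
Signal of the H3K4me3 region within 1 kb of the TSS (y axis, deposited ratio) for the 17 marked low CpG genes of the stem cell list (x axis), in the pooled list and each replicate's list; crosses mark a list without a region there. Signals run from 23.8 at Lin28a to 5.75 at Dnmt3l, and Nr5a2 has no region there in the list of replicate 1.

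At 4 low CpG stem cell genes no mm9 region was found within 1 kb. For Nanog, a core transcription factor, the nearest pooled region was 8307 bp away in mm9. On mm10 the replicated list had a peak with a signal of 37.7 whose summit lay 419 bp downstream of the RefSeq start of Nanog. The lists of both builds come from the same libraries but from separate processing, and the cause of this disagreement was not tested. For Esrrb the gap was 29467 bp from the 5′-most TSS, and for Pecam1 12942 bp.

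Of 16 low CpG genes in the germline list 6 were marked (37.5%, interval 18.5 to 61.4%, which holds the 25.8% of all low CpG genes), with a median signal of 5.43. Nobox, an oocyte homeobox factor, had 7.90, with 7.99 and 7.79 in the replicates. Stra8, which meiosis requires, had 7.15, with no region in replicate 1. Tnp2, a transition protein of sperm chromatin, had 5.51 in the pooled list but 4.74 and 19.3 in the replicates. Figla, another oocyte factor, had 5.35 over 400 bp and was in neither replicate's list. Zp3, of the egg coat, and Piwil4, a piRNA-binding protein, had 3.49 and 3.47. Bmp15 and Gdf9, oocyte growth factors, had none. All 10 low CpG genes of the 2-cell-like list, among them Gm6763 and Tdpoz1, were without a region, for which the Wilson interval reaches 27.8%.

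Genes of differentiated tissues ranged on both sides of the 25.8%. In the fibroblast list 9 of 18 low CpG genes were marked. Loxl1, a collagen cross-linking enzyme, had 22.8, with 30.3 and 25.4 in the replicates. Col1a2, a collagen chain, had 14.4 against 32.8 and 13.5 in the replicates, and its region began 387 bp from the TSS. Sparc, a matrix glycoprotein, was a stand-alone gene with 9.92. Acta2 and Col3a1 had no region. Whether other cells in the culture contributed was not tested.

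In the blood and immune list 9 of 31 low CpG genes had a region (29.0%). Klf1, the erythroid Krüppel-like factor, had 15.5, with 25.4 and 21.0 in the replicates, and Cd68, a macrophage glycoprotein, had 14.3 in a region of 13800 bp. Btk and Ccl3 had none. In the muscle and heart list 8 of 24 gene records were marked, of which 2 are records of Tnnc1, cardiac troponin C, at 1 region with a signal of 21.0, 698 bp from the TSS. Actc1 was unmarked. Among neuron and glia genes 4 of 13 were marked, with 18.8 at Gfap, the astrocyte filament, and 13.7 at Stmn2, a neuronal tubulin regulator. Aqp4 and Camk2a were unmarked.

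Liver genes were marked in 4 of 26 cases (15.4%), led by the apolipoprotein genes Apob and Apoa1 with 10.1 and 6.92. Afp and Ahsg, fetal liver proteins of plasma, had none. Placental genes were marked in 2 of 20 cases. Krt8, a simple epithelial keratin, had 5.75 and Psg16 had 3.21. Ctsj and Ctsq had none. Of 25 genes of skin and secretion 3 were marked, among them Lor, loricrin of the cornified envelope, with 21.9 and with 37.2 and 26.3 in the replicates. The region of Lor began 664 bp from the TSS and contained a window of ratio 0.97. Muc2, an intestinal mucin, had 4.38 in a region 933 bp away that neither replicate's list had at this TSS. Amy2a5 and Cela1 were unmarked.

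**Figure D5:**
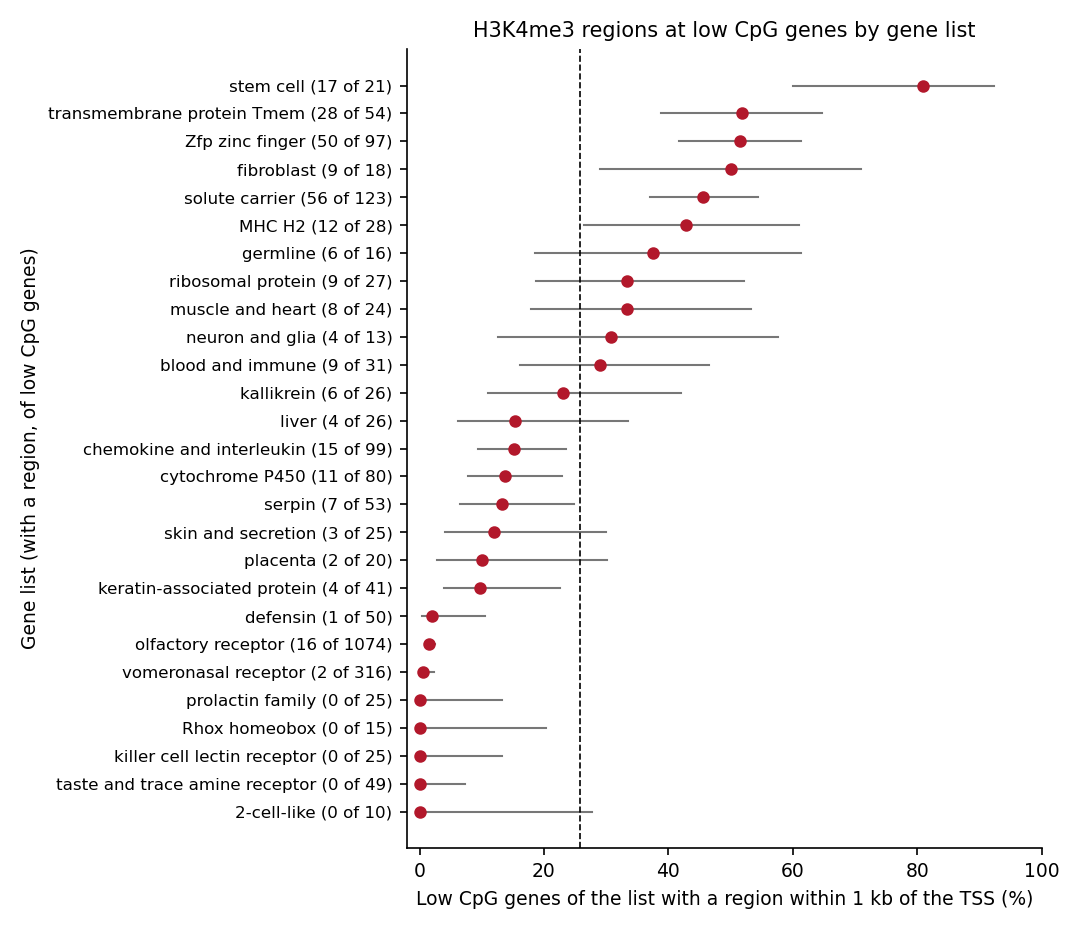
Percent of low CpG genes with a region within 1 kb of the TSS (x axis) for each list with at least 10 low CpG genes (y axis, marked of low CpG genes); bars are Wilson 95% intervals and the dashed line is the 25.8% of all low CpG genes. Stem cell genes stand at 81.0%, and olfactory and vomeronasal receptor genes at 1.49% and 0.633%.

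The large receptor families made up much of the unmarked set. Of 1074 low CpG olfactory receptor genes 16 were marked (1.49%, interval 0.919 to 2.41%), and the region covered the TSS at 7 of these. A neighbouring gene start or rich DNA was present at 13 of the 16, where 27.0% of all marked low CpG genes had neither. Olfr1344 had 22.8, with 29.9 and 25.8 in the replicates, and Olfr658 had 21.5 and 12.2 in the replicates. Both lie at regions of 1200 bp or less. Olfr1 and Olfr10 had none. Of 316 low CpG vomeronasal receptor genes 2 were marked. Vmn1r48 had 30.4 at a region 435 bp from the TSS, in a promoter whose 31-base words all recur at another gene, so this assignment is uncertain. Vmn1r1 had 2.52. V1ra8 and V1rd19 had none. No region was found at 49 taste and trace amine receptor genes (Wilson upper limit 7.27%), Taar1 and Taar2 among them.

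Several other clustered families had few marked genes or none. Whether promoter sequence shared between copies hid regions in these or in the receptor families was not tested. No region was found at 25 killer cell lectin receptor genes (Klra1 and Klra10 among them), 25 prolactin family genes (Prl2a1 and Prl2b1) or 15 Rhox homeobox genes (Rhox1 and Rhox10). Of 50 defensin genes only Defb30 had one, with 4.46. Of 41 keratin-associated protein genes 4 had one, and each replicate called 1 gene of this family. Krtap4-13 had 8.14 and Krtap4-16 had 7.35, while Krtap1-3 and Krtap1-4 had none. Kallikrein genes, serine proteases of one cluster on chromosome 7, were marked in 6 of 26 cases (23.1%, interval 11.0 to 42.1%), near the 25.8% of all low CpG genes, with 8.59 at Klk13 and 6.26 at Klk5, both stand-alone. Klk12 and Klk14 were unmarked.

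Enzyme and immune families varied beside the 25.8% of all low CpG genes. Cytochrome P450 genes were marked in 11 of 80 cases (13.8%, interval 7.85 to 23.0%). Of the 11, 5 stood alone, against 415 of all 2223 marked low CpG genes. Cyp7b1, an oxysterol hydroxylase, had 15.1 and Cyp4f13, a fatty acid hydroxylase, 12.8. Cyp11a1 and Cyp11b1, of steroid synthesis, had none. Serpin genes were marked in 7 of 53 cases (13.2%), with 4.79 at Serpinb6b. Serpina10 and Serpina11 had none. Chemokine and interleukin genes were marked in 15 of 99 cases (15.2%). Cxcl5, a neutrophil chemokine, had 20.9, with 24.3 and 21.8 in the replicates. Ccl27b had 22.4, but all of its promoter words recur elsewhere. Ccl1 and Ccl11 had none. Of 28 low CpG MHC H2 genes 12 were marked (42.9%, interval 26.5 to 60.9%), with 19.3 at H2-D1, a class I gene, and 13.2 at H2-Ab1, a class II gene. H2-Aa and H2-DMb1 had none.

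Zfp zinc finger genes were marked in 50 of 97 cases (51.5%, interval 41.7 to 61.2%), against 25.8% of all low CpG genes. Rich DNA or another gene start was nearby at 40 of the 50, where 27.0% of all marked low CpG genes had neither. Zfp238 had 32.7, with 36.6 and 21.8 in the replicates, at a region 592 bp from the TSS. Zfp945 had 25.2 at a region over the TSS. Zfp108 and Zfp111 had none. Solute carrier genes were marked in 56 of 123 cases (45.5%), where Slc6a9, the glycine transporter, followed Slc35f4 with 31.5. Slc10a1 and Slc10a2, bile acid transporters, were unmarked. Transmembrane protein genes named Tmem were marked in 28 of 54 cases (51.9%), with 29.3 at Tmem229b after Tmem9b, while Tmem125 and Tmem132b were unmarked in mm9. Of 27 low CpG ribosomal protein genes, many of them named as processed copies, 9 were marked (33.3%, interval 18.6 to 52.2%), and this interval holds the 25.8% of all low CpG genes. Rps19-ps2 had 23.7 in a region of 400 bp absent from replicate 2, with a promoter shared in full with another gene, and Rpl10a-ps2 and Rpl17-ps3 had none. The only low CpG histone cluster gene, Hist1h1t, a testis linker histone, had 5.94 at a region 121 bp from the TSS, with Hist1h4c starting 2643 bp downstream.

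Outside the rule for named genes, Fam70a on the X had the highest signal of all marked low CpG genes, and it was chosen after the values were seen. It had 144 over 600 bp in the pooled list, with 130 and 532 in replicates 1 and 2, so the replicates were far apart.

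The genes at the limits of the rule were as follows. Just below the ratio of 0.48 lay Gm11006, Lrrc8e and St6gal2, with signals of 3.90, 10.1 and 18.8. Just above it lay the marked genes Ncald, Mamdc2 and Pdgfrb, with 14.4, 8.94 and 4.29. At the limit of distance the regions of Eya2, 4930511I11Rik and Kcnj9 lay 998, 996 and 994 bp from the TSS, with signals of 3.70, 3.48 and 3.05. Those of Hpse2, Dusp8 and Tmem180 lay 1001, 1009 and 1011 bp away and were not counted.

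The mm10 lists give the same libraries under other processing. Through the symbol, chromosome and strand, 14918 genes were matched to a RefSeq start on GRCm38.p6, and 69.7% of these had a peak of the replicated mm10 list within 1 kb. Of the marked low CpG genes 1441 were matched, and 1297 had such a peak (90.0%, interval 88.4 to 91.5%). Of the unmarked ones 4100 were matched and 256 had one (6.24%). The start differs between the annotations for some genes, which was not separated here. The summit of the mm10 peak lay downstream of the start at 84.0% of the 1297 genes, with a median of 249 bp (quartiles 122 and 522). The medians were 219.5 bp at marked intermediate and 234 bp at marked high CpG genes. Pou5f1 had a signal of 69.4 in the replicated mm10 list, with 61.9 and 60.1 in the replicates, Tet1 had 59.5 and Lin28a had 59.4. Tsks, whose mm9 region neither replicate had, stood at 5.03.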

How the data were processed

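H3K4me3 ChIP-seq peak lists of 2 biological replicates of E14TG2a.4 cells were used. The deposited mm9 lists give each region a signal, taken as a ratio, and its p-value and q-value; all region edges lie on a grid of 200 bp. The authors' mm10 lists give a ratio of ChIP over control, the −log10 of p and q, and a summit. The mm9 and mm10 aligner and caller: not given in the sources used here. The depth is unknown.

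Gene starts came from GENCODE vM1 and sequence from NCBIM37. A gene's region was the one with the highest signal within 1 kb. Widths of groups of genes are those of the widest region within 1 kb, and a TSS was covered when any region covered it. On mm10, starts came from the RefSeq promoter table (GRCm38.p6), and no coordinate was moved between builds. The pooled mm9 list may hold the replicates' reads, so the replicates show spread and are no independent support. The members and the 28 gene lists were chosen with earlier results of these data known. Per list, the text names 2 members of highest signal (up to 12 for stem cell and germline genes) and the first 2 unmarked genes by alphabet. It also names the 10 stand-alone genes of highest signal and of greatest width, and those nearest the limits. Genes added after their values were seen are Sox2, Dppa5a, Spp1, Nr5a2, Dppa3, Dnmt3l, Sparc, Pecam1 and Fam70a. Some genes that these rules pick are not reported here. Counting of CpG windows and of overlaps was tested on simulated sequences and regions, in Python 3.11.15 with numpy 2.4.6 and matplotlib 3.10.9. The motif search was not tested in this way. Alternatives changed the distance, the ratio limit, the sequence window, the lists and the gene set.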

Additional observations from a re-analysis of the deposited data

How the results depend on the processing

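No paired analysis was possible because there is 1 group of samples and no result comes from a test between groups. The marked share of low CpG genes (25.8%) and, of the marked genes, the shares with another gene start within 1 kb (9.31%), with a window over 0.48 within 3 kb (71.2%) and with the TSS covered (81.5%) were recomputed under each alternative, and a move is one larger than the SD between the replicates' lists, which is small. With 500 bp in place of 1 kb they were 23.7%, 9.68%, 70.9% and 88.6%, and with 2 kb 29.2%, 9.04%, 70.8% and 71.8%. Counting only regions over the TSS gave 21.0%, 9.71% and 70.5%. Regions at or above the list's median signal gave 18.9%, 10.4%, 80.7% and 82.9%. Leaving out 1 replicate, by taking the other's own list, gave 23.0 to 23.9%, 9.59 to 9.81%, 72.5 to 73.7% and 80.0 to 80.8%. Regions overlapped by both replicates' lists gave 22.8%, 9.71%, 74.4% and 83.3%, and by over 50% 22.0%, 9.56%, 74.97% and 83.3%. A ratio limit of 0.40 gave 20.2%, 8.94%, 64.4% and 77.0%, and 0.35 gave 17.1%, 8.16%, 62.5% and 75.2%. Extending the classing window to 1300 bp downstream left 6833 low CpG genes, of which 1062 were marked, and gave 15.5%, 6.97%, 39.6% and 76.3%. Requiring every coding start of the gene to be low gave 22.3%, 7.89%, 63.3% and 76.3%. Genes with no other gene start within 5 kb gave 22.6%, 68.2% and 81.6%. Without the receptor families the marked share was 30.5%. Without genes whose promoter is mostly shared with another gene, an alternative chosen after seeing the data, it was 27.6%, and the other 3 shares moved by less than the SD in both of these. The replicated mm10 list gave 28.0% of the 5541 low CpG genes matched to a RefSeq start, so the genes and starts changed with the list. The 2 alternatives that fix a share by their own condition (regions over the TSS, and no other start within 5 kb) gave no value for it. The share called in both replicates stayed at 84.3% and 85.8% with 500 bp and 2 kb. The GC box rose to 33.7% of marked and 7.78% of unmarked genes from 500 bp upstream to 100 bp downstream. The marked share was lowest with the longer classing window and the ratio limit of 0.35. Depth, which is unknown, limits how weak a region could be called.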
